A study of Mus musculus with 25 samples.

Results

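The change from the ovulated egg to the zygote was followed in mouse oocytes that lacked Smarca4, by setting knockout zygotes at the PN3 pronuclear stage (KO PN3, 4 libraries) against knockout oocytes arrested at metaphase II (KO MII, 2 libraries). These 6 libraries were chosen by their labels out of 25 libraries of oocytes and embryos. Of 24412 gene symbols listed, 9838 were tested, those that reached an FPKM of 1 in 2 or more of the 6. FPKM is the number of fragments per kilobase of transcript, scaled to the size of the library. The labels name C57BL/6 females floxed on both Smarca4 alleles (Smarca4 flox/flox), with Cre driven by Gdf9, a gene of growing oocytes. Knockout oocytes were taken to come from these females, so that Smarca4 was lost from the oocyte before it was ovulated. The wild-type counterpart (WT PN3, 4 libraries, and WT MII, 3 libraries) was used to ask whether a change also took place with Smarca4 present. Females of both kinds were 8 to 12 weeks old and superovulated, the other strain named was B6D2F1, and zygotes were made by injecting sperm. The labels do not give the strain behind each library, whether several eggs were pooled in a library, or whether replicates came from separate females. Strain and genotype therefore cannot be told apart, and p-values measure the spread between libraries, which may be technical.

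A mouse egg waits at metaphase II, held there by cytostatic factor, a pathway that the kinase Mos feeds. Sperm entry sets off calcium waves that release the arrest, harden the zona pellucida coat and start the turnover of messenger RNAs that the oocyte had stored. The embryo's own genome is nearly silent until minor activation late in the zygote and major activation at the 2-cell stage, so most RNA of a PN3 zygote was inherited. Smarca4, also called Brg1, is the ATPase of BAF chromatin remodelling complexes, and mouse embryos that lack the maternal supply are known to stop at the 2-cell stage.

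Smarca4 itself was at 0.355, 0.482, 0.279 and 0.239 in the KO PN3 libraries, against 0.233 and 0.234 in the KO MII libraries, in FPKM after rescaling between libraries, the scale used for every level here. In wild type it was at 31.9, 32.8, 33.1 and 36.1 in the WT PN3 libraries and 27.3, 29.0 and 32.3 in the WT MII libraries, so the labels of all 13 libraries matched the gene. Its paralog Smarca2, the other BAF ATPase, was at 65.6, 68.5, 50.3 and 50.9 in the KO PN3 libraries, against 51.2 and 43.9 in the KO MII libraries, and this difference did not pass the test (log2 difference 0.29 ± 0.13 SE, limma adjusted p = 0.0841). It was called as higher with PN3 replicates 1 and 2 only (0.49), without KO PN3 replicate 3 (0.36) and without KO PN3 replicate 4 (0.36), while its value was 0.10 with PN3 replicates 3 and 4 only. All 14 oocyte markers were at or above an FPKM of 1 in each of the 6 libraries, and their summed level was 4744 to 5277 in KO PN3 and 6976 to 7179.9 in KO MII. Of 30 cumulus and granulosa markers, the cells that surround the egg, 3 or 4 reached an FPKM of 1 in a library, 13 to 20 were at 0, and their summed level was 68.6 to 76.5 in KO PN3 and 70.6 to 78.3 in KO MII. Among 37 sperm and testis markers Prm1, a sperm protamine, was listed at 0 in all 6 libraries, while Prm2 was at 8.75, 8.54, 6.02 and 8.83 in the KO PN3 libraries, against 7.74 and 8.70 in the KO MII libraries. Genes above 0 numbered 15223 to 16336 per library. Blood and immune markers, 25 in all, summed to 1.93 to 2.12 in KO PN3 and 1.48 to 2.02 in KO MII, so these and the cumulus sums overlapped between the groups. The files hold no read counts, so the depth of each library is unknown.

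The 4 PN3 libraries of a genotype were not alike. Replicates 3 and 4 lay nearer to the MII oocyte than replicates 1 and 2 in KO and in WT alike, although no label names a batch or a time for them. Over the 494 genes that fell at least 2-fold in WT, a set called on the WT change, the median distance from the KO MII mean was -1.44, -1.41, -1.14 and -1.11 on the log2 scale in KO PN3 replicates 1 to 4. What sets the pairs apart was not tested. Fits with either pair alone were chosen after the data were seen.

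In the knockout, 2210 genes were lower and 1763 higher in zygotes than in MII oocytes at a limma adjusted p under 0.05, so 40.4% of the genes tested were called (22.5% lower and 17.9% higher). Larger changes ran mostly downward: 424 genes fell at least 2-fold (4.31% of those tested) and 29 rose at least 2-fold (0.295%). In such counts 2-fold is a difference of 1 in log2(FPKM + 1), which for low genes takes more than a 2-fold change in FPKM. The folds given for single genes are ratios of group means. The 4 zygote libraries all lay on one side of both oocyte libraries for 54.3% of all genes tested, and for 3922 of the 3973 called. The median change over all genes was 0.00. The values are relative within a library: a change in the total RNA of the egg is not visible, and in bulk samples fewer cells and less RNA per cell cannot be told apart. Of the genes tested, 242 passed the level filter through the zygote libraries alone and 121 through the oocyte libraries alone, so a difference was built into their selection. Counts depended on the design of the fit: one fit of all 25 libraries called 129 higher and 658 lower. Without KO MII replicate 1 or 2, which leaves 1 library in that group, fewer genes were called over all genes. A smaller count of list members in those 2 fits is therefore not by itself a trait of the list.

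**Figure D1:**
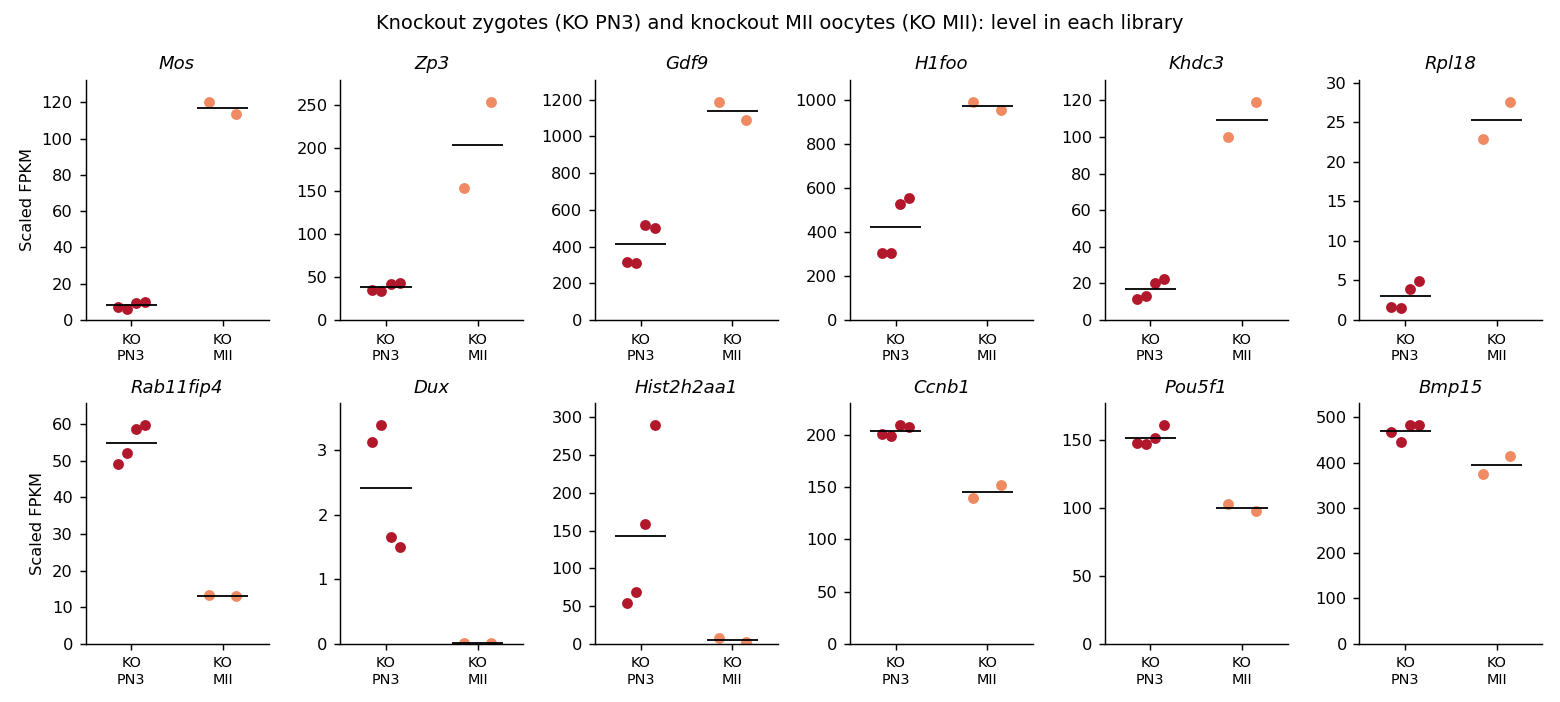
Level of 12 genes in each knockout library, in rescaled FPKM on linear axes that start at 0, with KO PN3 (4 libraries) left of KO MII (2 libraries) and a line at each group's mean. Mos, Zp3, Gdf9, H1foo, Khdc3 and Rpl18 were lower in every zygote library, and Rab11fip4, Dux, Hist2h2aa1, Ccnb1, Pou5f1 and Bmp15 were higher in every one.

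The transcript that keeps the egg arrested fell furthest among the cell cycle genes. Mos was at 7.04, 6.27, 9.33 and 10.0 in the KO PN3 libraries, against 120.4 and 114 in the KO MII libraries. No zygote library came near an oocyte library, and the mean was 14.3-fold lower (log2 difference -3.71 ± 0.23 SE, limma adjusted p = 8.7e-08). Bub1b, a spindle checkpoint kinase, was at 63.4, 65.2, 139 and 142 in the KO PN3 libraries, against 424 and 426 in the KO MII libraries, with replicates 1 and 2 lower than 3 and 4 (-2.15 ± 0.36, limma adjusted p = 0.00048). Smc3, a core subunit of cohesin, was at 28.1, 27.4, 29.3 and 27.5 in the KO PN3 libraries, against 85.5 and 86.7 in the KO MII libraries, a tight and complete separation (-1.58 ± 0.06, limma adjusted p = 3.3e-09). Anapc4, of the anaphase-promoting complex that destroys cyclin, also fell (-0.94 ± 0.08, limma adjusted p = 1.3e-06). In the list of M-phase kinases, meiotic arrest genes and the anaphase-promoting complex, of 75 members tested, 17 rose, 21 fell and 37 did not pass the test, with a median of 0.01 against 0.00 over all genes. Its shares were 22.7% higher and 28% lower, against 17.9% and 22.5% of all genes. Ccnb1, the cyclin whose protein is destroyed at egg activation, rose at the RNA level, with 201, 199, 209 and 208 in the KO PN3 libraries, against 139 and 152 in the KO MII libraries (0.49 ± 0.06, limma adjusted p = 5.3e-05). Plk1, a mitotic kinase, fell slightly (-0.34 ± 0.10, limma adjusted p = 0.0139), and without KO MII replicate 1 the difference was -0.28 and no longer called. The number that rose was 9 without KO MII replicate 1 and 10 without replicate 2.

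The genes of the egg coat fell together. Zp1, Zp2 and Zp3 encode the glycoproteins of the zona pellucida, made while the oocyte grows. Zp3 was at 34.3, 34.1, 41.8 and 42.6 in the KO PN3 libraries, against 153 and 254 in the KO MII libraries. Even the lower oocyte library was far above all 4 zygote libraries, and the mean was 5.33-fold lower (-2.35 ± 0.16, limma adjusted p = 1.4e-07). Zp1 fell 3.70-fold, with 30.8, 32.9, 43.6 and 42.5 in the KO PN3 libraries, against 137 and 140.2 in the KO MII libraries (limma adjusted p = 1e-07). Zp2 fell 3.07-fold, with 75.7, 72.2, 78.7 and 77.9 in the KO PN3 libraries, against 212 and 256 in the KO MII libraries (limma adjusted p = 7.5e-09). The 2 growth factors of the oocyte differed in direction. Gdf9 was at 317, 313, 516 and 501 in the KO PN3 libraries, against 1189 and 1091 in the KO MII libraries, lower in each zygote library (-1.51 ± 0.21, limma adjusted p = 8.1e-05). Bmp15, its partner in signalling to cumulus cells, was at 466, 446, 482 and 482 in the KO PN3 libraries, against 374 and 415 in the KO MII libraries, a small rise (0.25 ± 0.06, limma adjusted p = 0.00529) that lost its call without KO MII replicate 1 (0.17). In the list of zona proteins and oocyte growth factors, of 28 members tested, 5 rose, 11 fell and 12 did not pass the test, and 6 of those that fell did so at least 2-fold. So 17.9% of the list rose and 39.3% fell, against 17.9% and 22.5% of all genes. The number that rose was 2 without KO MII replicate 1 and 3 without replicate 2.

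Stored oocyte messages carry control elements at their 3′ ends, and the ends of several of these genes are shown so that the fallen and risen ones can be read side by side. Each line has 30 bases, 5′ to 3′ on the transcript strand, from the GENCODE vM21 transcript on GRCm38, with the last AATAAA cleavage signal in capitals.
Mos: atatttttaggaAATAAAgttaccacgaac
Zp1: atggactcAATAAAccattgtttgaaaact
Zp2: ttggacttgcaAATAAAgagactgcagtta
Gdf9: atgtgacggaagAATAAActgttgatggca
Bmp15: ttaatcttaaagAATAAAttttcatttatg
Ccnb1: ctttatgttgctAATAAAcatagttttcga
Pou5f1: attttgttcttaAATAAAgactgggacaca
The genes lie at Mos chr4:3870657-3872105 (minus strand), Zp1 chr19:10914287-10920632 (minus strand), Zp2 chr7:120126772-120145291 (minus strand), Gdf9 chr11:53431023-53437904 (plus strand), Bmp15 chrX:6314107-6320721 (minus strand), Ccnb1 chr13:100778650-100786570 (minus strand) and Pou5f1 chr17:35506018-35510772 (plus strand), and each window is the part of the annotated 3′ UTR around its signal. The windows were placed on this hexamer, so its presence in all 7 was fixed beforehand and says nothing about the direction of change. The annotated 3′ UTR was 34 bases in Zp1, 49 in Zp2, 126 in Mos and 360 in Gdf9, which fell. It was 1523 bases in Bmp15, 1028 in Ccnb1 and 221 in Pou5f1, which rose. The 7 were chosen after their values were seen, and the letters are a description only.

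Length was then read over all genes. Of the genes tested, 92.7% matched an annotated coding transcript. The median 3′ UTR was 246 bases in genes that fell at least 2-fold, 629 in all that fell, 1033 in those that rose and 900 over all genes tested. Without the ribosomal and respiratory chain genes, which are short, it was still 304.5 in those that fell at least 2-fold. The genes were split by 3′ UTR length into 5 bins of like size. In the bin with the shortest 3′ UTR (up to 264 bases, 1825 genes), 35.8% fell and 11.1% rose, with a median change of -0.14. In the other 4 bins the medians were -0.01, 0.04, 0.05 and 0.03, from short to long. The WT change over the same bins had medians of -0.17, -0.02, 0.03, 0.05 and 0.03. Whole transcripts were shorter too, with a median of 1743 bases in genes that fell at least 2-fold against 2953 over all. The part that transcript length plays in FPKM of short genes was not tested.

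**Figure D2:**
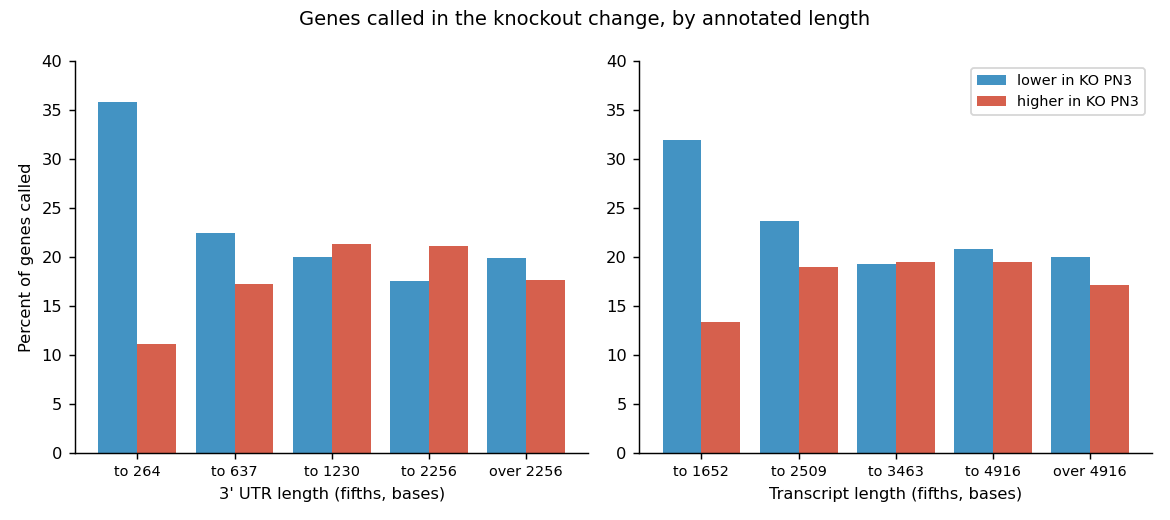
Percent of genes called lower (blue) or higher (red) in KO PN3 than in KO MII, for 5 bins of genes by annotated 3′ UTR length (left) and transcript length (right), in bases. In the bin with the shortest 3′ UTR, 35.8% were called lower and 11.1% higher.

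Short sequence elements of the 3′ UTR were counted in the same gene groups, as a description. The Pumilio element TGTANATA, bound by Pumilio repressors, stood at 0.274 per kilobase of 3′ UTR in genes that fell at least 2-fold, 0.252 in those that rose and 0.252 over all. The AU-rich element TATTTAT stood at 0.250, 0.292 and 0.291 in the same order. The cytoplasmic polyadenylation element TTTTAT, which lets the egg lengthen tails, stood at 0.995, 1.03 and 1.05. The last 100 bases were read only in 3′ UTRs of at least 100 bases. These were 296 of 407 matched genes that fell at least 2-fold, 1542 of 1613 that rose and 8464 of 9121 over all. Within them TTTTAT was present in 17.2%, 16.9% and 15.5%, and a signal of AATAAA or ATTAAA in 73.6%, 83.5% and 80.1%. All elements were searched on the transcript strand, and a match is not a known site.

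Maternal effect genes, whose loss in the mother stops her embryos, went in both directions. In their list 25.7% rose and 25.7% fell, against 17.9% and 22.5% of all genes. Khdc3, a member of the subcortical maternal complex, was at 11.6, 12.9, 20.4 and 22.2 in the KO PN3 libraries, against 99.7 and 119 in the KO MII libraries, 6.53-fold lower on average (-2.68 ± 0.22, limma adjusted p = 9.8e-07). Tle6, another member, fell less, with 121, 127, 182 and 204 in the KO PN3 libraries, against 395 and 417 in the KO MII libraries (-1.39 ± 0.25, limma adjusted p = 0.00067). Padi6, of the cytoplasmic lattices, fell as well (-1.05 ± 0.15, limma adjusted p = 0.00011), as did Nlrp2 (-1.43 ± 0.11, limma adjusted p = 3.7e-07). Nlrp5, also called Mater, the core of the complex, was at 188, 187, 177 and 197 in the KO PN3 libraries, against 199 and 214 in the KO MII libraries and was not called, except with PN3 replicates 1 and 2 only (-0.14). Dppa3, which guards maternal DNA methylation, was at 858, 843, 778 and 621 in the KO PN3 libraries, against 705 and 774 in the KO MII libraries, overlapping between the groups, and was called only in the fit with PN3 replicates 1 and 2 (0.20). In all, of 35 members tested, 9 rose, 9 fell and 17 did not pass the test, and the number that rose was 3 without KO MII replicate 1.

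Among genes of egg activation and sperm-egg interaction, of 29 members tested, 6 rose, 5 fell and 18 did not pass the test, and the number that fell was 3 without KO MII replicate 2. With all libraries 20.7% of this list rose and 17.2% fell, near the 17.9% and 22.5% of all genes. Astl encodes ovastacin, the protease that hardens the zona after fusion, and was at 8.66, 7.86, 14.4 and 14.6 in the KO PN3 libraries, against 68.3 and 63.2 in the KO MII libraries. It was 5.77-fold lower (-2.48 ± 0.24, limma adjusted p = 4.2e-06). Cd9, a tetraspanin needed for sperm fusion, fell to 11.2, 13.1, 13.4 and 10.6 in KO PN3, against 21.6 and 25.8 in KO MII (-0.92 ± 0.12, limma adjusted p = 4.7e-05), and Vamp3, a vesicle fusion protein, fell too (-0.67 ± 0.10, limma adjusted p = 0.00013). Itpr2, an inositol trisphosphate receptor that releases calcium, rose, with 16.0, 16.0, 16.0 and 15.7 in the KO PN3 libraries, against 7.22 and 8.26 in the KO MII libraries, 2.06-fold higher (0.96 ± 0.08, limma adjusted p = 6.7e-07). Izumo1r, also called Juno, the egg receptor for sperm, was at 76.3, 74.7, 93.0 and 97.7 in the KO PN3 libraries, against 83.5 and 73.1 in the KO MII libraries and was not called. It was called with PN3 replicates 3 and 4 only (0.30), and its value was -0.05 with replicates 1 and 2 only.

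Chromatin genes of the egg changed in both directions. Over all genes 17.9% rose and 22.5% fell. The shares were 44.1% and 14.7% for histone variants and chaperones, 26.9% and 7.46% for histone-modifying enzymes, and 33.3% and 12.5% for BAF subunits. H1foo, the oocyte linker histone, was at 303, 306, 528 and 553 in the KO PN3 libraries, against 992 and 955 in the KO MII libraries, with replicates 1 and 2 again lower than 3 and 4 (-1.26 ± 0.23, limma adjusted p = 0.00084). With PN3 replicates 3 and 4 alone its difference was -0.84, still called. Npm3, a histone chaperone of the nucleoplasmin family, rose (0.66 ± 0.10, limma adjusted p = 0.00013), and so did Nap1l4 (0.61 ± 0.05, limma adjusted p = 1.9e-06). For histone variants and chaperones, of 34 members tested, 15 rose, 5 fell and 14 did not pass the test, with 9 that rose and 3 that fell without KO MII replicate 2. Among histone-modifying enzymes, of 67 members tested, 18 rose, 5 fell and 44 did not pass the test, with 7 that rose and 3 that fell without that same library. Suv39h1, a histone H3 lysine 9 methyltransferase, fell (-1.0 ± 0.08, limma adjusted p = 9.4e-07), and Kat6b, an acetyltransferase, rose (0.52 ± 0.08, limma adjusted p = 0.00021). Among BAF subunits, of 24 members tested, 8 rose, 3 fell and 13 did not pass the test. Dpf3 rose (0.50 ± 0.10, limma adjusted p = 0.00139), and Smarcd2 and Smarcb1 fell (-0.57 and -0.41, limma adjusted p = 0.00059 and 0.00131). The number of BAF subunits that rose was 4 without KO MII replicate 2. Dnmt1, the maintenance DNA methyltransferase, was at 299, 312, 327 and 354 in the KO PN3 libraries, against 539.6 and 594 in the KO MII libraries, a fall (-0.81 ± 0.10, limma adjusted p = 2.3e-05). Zfp57, which protects imprints, rose (0.44 ± 0.05, limma adjusted p = 1.3e-05), and Tet3, which oxidises methylcytosine in the male pronucleus, was at 198, 193, 215 and 221 in the KO PN3 libraries, against 241 and 185 in the KO MII libraries, with no call.

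Among the lists, that of cytosolic ribosomal proteins had the highest share of members that fell. Of 82 genes of cytosolic ribosomal proteins tested, 62 fell and none rose (75.6% lower, against 22.5% of all genes), and 41 fell at least 2-fold. Their median change was -0.99. Rpl26, of the large subunit, was at 3.34, 2.69, 0.851 and 0.351 in the KO PN3 libraries, against 54.8 and 74.4 in the KO MII libraries, the largest fall of any gene named here (-4.69 ± 0.59, limma adjusted p = 9.2e-05). Rpl18 was at 1.68, 1.56, 3.97 and 4.91 in the KO PN3 libraries, against 22.9 and 27.6 in the KO MII libraries, 8.33-fold lower (-2.79 ± 0.37, limma adjusted p = 6.3e-05). Rps13, of the small subunit, fell 7.09-fold (limma adjusted p = 4.8e-05), and Rps29 fell 6.01-fold (limma adjusted p = 5.6e-06). Rps27rt, an Rps27 retrogene, was listed at 0, 0.172, 0 and 0 in the KO PN3 libraries, against 3.03 and 7.92 in the KO MII libraries, through which alone it passed the level filter. The median of the list against the KO MII mean was -1.08, -1.08, -0.83 and -0.86 in KO PN3 replicates 1 to 4, below 0 in each. Ribosomal protein genes have many processed pseudogenes that share reads with them, so the level of a single one is uncertain. In wild type the same list had 1 higher and 69 lower in WT PN3 (median -0.99).

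Translation of ribosomal protein messages is known to be set by a terminal oligopyrimidine tract, a C and a run of pyrimidines at the very start of the RNA. Shown are the 4 largest falls among called ribosomal protein genes with a single start in the promoter table and a tract near it. Sequences are from RefSeq (GRCm38.p6), from 30 bases before the annotated start site to 20 bases into the transcript, with the tract in capitals. In Rpl38 the tract began at the annotated start. In Rpl18, Rps26 and Rpl39 it began 1, 4 and 6 bases after it, so not at the very start.
Rpl18: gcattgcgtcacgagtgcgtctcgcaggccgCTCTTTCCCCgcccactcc
Rpl38: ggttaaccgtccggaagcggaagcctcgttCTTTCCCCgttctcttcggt
Rpl39: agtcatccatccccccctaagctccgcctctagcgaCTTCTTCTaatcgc
Rps26: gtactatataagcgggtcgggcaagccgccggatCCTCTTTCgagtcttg
These are chr7:45718041-45718090 on the plus strand, chr11:114668550-114668599 on the plus strand, chrX:37085203-37085252 on the minus strand and chr10:128626487-128626536 on the minus strand. A C followed by at least 5 pyrimidines, starting within 10 bases of the annotated start on the transcript strand, was present in 26 of 52 ribosomal protein genes with a single entry, and in 19.3% of 5941 genes tested. The shares that fell lay close together with and without it. Of ribosomal protein genes with it 76.9% fell, and of those without it 73.1%. Of all other genes with it 23.7% fell, and of those without it 23.4%.

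Messages for mitochondrial proteins fell in the same direction. Of 78 nuclear-encoded genes of the respiratory chain, 53 fell and 3 rose, with a median of -0.65, and 24 fell at least 2-fold. That is 67.9% lower and 3.85% higher, against 22.5% and 17.9% of all genes. Ndufa9, of complex I, was at 2.12, 2.30, 3.16 and 2.96 in the KO PN3 libraries, against 23.3 and 24.8 in the KO MII libraries, 9.13-fold lower (-2.80 ± 0.16, limma adjusted p = 5.7e-08). Cox7c, of complex IV, was at 2.67, 4.84, 5.42 and 2.16 in the KO PN3 libraries, against 20.6 and 28.2 in the KO MII libraries (-2.46 ± 0.34, limma adjusted p = 8.1e-05). Atp5o, of ATP synthase, and Uqcr11, of complex III, fell 5.16-fold and 5.17-fold (limma adjusted p = 5.1e-07 and 1.2e-06). For mitochondrial ribosomal proteins, of 71 members tested, 1 rose, 34 fell and 36 did not pass the test (median -0.36), led by Mrpl14 (-1.92 ± 0.24, limma adjusted p = 3.9e-05). Here 47.9% fell and 1.41% rose. Without KO MII replicate 1 or 2, the respiratory chain genes that rose numbered 1. Genes encoded in the mitochondrial genome itself are not analysed here. The WT change had 3 higher and 61 lower in WT PN3 (median -0.81) for the respiratory chain.

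Protein folding and turnover genes are set against the 22.5% of all genes that fell and the 17.9% that rose. For the proteasome, of 33 members tested, 4 rose, 13 fell and 16 did not pass the test, and the core subunit Psmb1 was at 7.79, 9.14, 9.94 and 12.4 in the KO PN3 libraries, against 35.6 and 48.6 in the KO MII libraries (-2.0 ± 0.14, limma adjusted p = 2.7e-07). For the TRiC chaperonin, which folds actin and tubulin, of 7 members tested, 1 rose, 4 fell and 2 did not pass the test, and Cct5 fell 2.58-fold (limma adjusted p = 2.3e-06). In the unfolded protein and integrated stress list, of 20 members tested, 3 rose, 12 fell and 5 did not pass the test (median -0.30). Those that fell include Ppp1r15b, which dephosphorylates eIF2 alpha (-1.49 ± 0.15, limma adjusted p = 7.1e-06), and the kinase Eif2ak1 (-0.95 ± 0.06, limma adjusted p = 5.7e-08). That count was 6 without KO MII replicate 1. Dnajb11, an endoplasmic reticulum cochaperone, was at 14.1, 13.8, 14.6 and 14.8 in the KO PN3 libraries, against 52.8 and 54.2 in the KO MII libraries (-1.83 ± 0.08, limma adjusted p = 3.3e-09). Hspa8, the constitutive Hsp70, fell 4.14-fold (limma adjusted p = 4.7e-06). In the heat shock list that holds both, of 25 members tested, 5 rose, 7 fell and 13 did not pass the test (28% lower and 20% higher), and 1 rose when KO MII replicate 1 or KO MII replicate 2 was left out.

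Other large falls belonged to several processes. Prr14, which tethers heterochromatin to the nuclear lamina, fell 7.13-fold, with 7.53, 7.19, 10.4 and 9.46 in the KO PN3 libraries, against 61.7 and 61.5 in the KO MII libraries (limma adjusted p = 8.1e-08). Leprot, a membrane protein that limits growth hormone and leptin receptors at the cell surface, fell 9.20-fold (limma adjusted p = 8.8e-08). Erp44, a chaperone of the early secretory pathway, fell 7.31-fold (limma adjusted p = 7.5e-09). Xab2, a spliceosome protein, fell 12.0-fold (limma adjusted p = 3.8e-08) and had passed the level filter through the oocyte libraries alone. By the rule that chose them, each had every zygote library below both oocyte libraries.

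Rises were mostly smaller, with a median change of 0.36 in genes called higher and -0.56 in genes called lower. Few reached a difference of 1 in log2(FPKM + 1). The histone gene Hist2h2aa1, given below, rose further than any gene in this paragraph. Rab11fip4, an adaptor of Rab11 recycling endosomes, rose 4.18-fold, with 49.1, 52.2, 58.7 and 59.7 in the KO PN3 libraries, against 13.4 and 12.9 in the KO MII libraries (1.98 ± 0.13, limma adjusted p = 1.3e-07). Gli3, a transcription factor of Hedgehog signalling, was at 3.16, 2.93, 7.78 and 6.85 in the KO PN3 libraries, against 0.802 and 0.616 in the KO MII libraries (1.76 ± 0.28, limma adjusted p = 0.00026), and here replicates 3 and 4 were the higher pair. Basp1, a protein of the cell cortex, was at 2.60, 2.94, 2.00 and 3.25 in the KO PN3 libraries, against 0.873 and 0.586 in the KO MII libraries (1.09 ± 0.20, limma adjusted p = 0.00084). Dclk1, a microtubule-associated kinase, was listed at 3.80, 3.11, 2.10 and 1.83 in the KO PN3 libraries, against 0.0185 and 0 in the KO MII libraries (limma adjusted p = 1e-05). Gli3, Basp1 and Dclk1 passed the level filter through the zygote libraries alone. Rn45s, the precursor of ribosomal RNA, was at 802, 499, 769 and 1039.5 in the KO PN3 libraries, against 344 and 336 in the KO MII libraries (1.14 ± 0.28, limma adjusted p = 0.0054). The libraries were depleted of ribosomal RNA, and how evenly was not tested.

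Small nucleolar RNAs guide the modification of ribosomal RNA and are cut from introns of host genes. Of 73 tested, 27 rose and none fell (37.0% higher, against 17.9% of all genes), with a median of 0.70. Snora31 was at 2.78, 1.01, 2.34 and 4.05 in the KO PN3 libraries, against 0.391 and 0.588 in the KO MII libraries (limma adjusted p = 0.00763), and had passed the level filter through the zygote libraries alone. Scarna6, of Cajal bodies, was at 43.9, 49.8, 51.2 and 55.2 in the KO PN3 libraries, against 24.3 and 20.2 in the KO MII libraries (limma adjusted p = 7.8e-05). Snora15 rose as well (1.09 ± 0.19, limma adjusted p = 0.00061). Snord58b (1.12 ± 0.41, limma adjusted p = 0.0407) lost its call in 9 of the 13 fits that left out 1 library, and Snora31 without KO MII replicate 1 (1.08). The list's median against the KO MII mean was 0.95, 0.28, 0.56 and 0.87 in KO PN3 replicates 1 to 4, an uneven rise with replicate 2 the lowest. The number that rose was 17 without KO PN3 replicate 1. It was smaller still without KO MII replicate 1 or 2, where fewer genes rose over all genes as well. Rnu11 and Rnu12 are RNAs of the minor spliceosome. Rnu11 was at 52.2, 29.3, 33.7 and 54.3 in the KO PN3 libraries, against 16.0 and 20.1 in the KO MII libraries (limma adjusted p = 0.00331). Rnu12 was at 32.4, 17.2, 26.2 and 33.4 in the KO PN3 libraries, against 11.1 and 12.2 in the KO MII libraries (limma adjusted p = 0.00437). Rnu11 lost its call without KO MII replicate 1 (0.99). Reads of a host intron cannot be told apart from the small RNA it holds.

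Replication-dependent histone genes, whose messages end in a stem-loop and lack a poly(A) tail, rose in part. Of 52 tested, 17 rose, 1 fell and 34 did not pass the test, with a median of 0.46. So 32.7% rose and 1.92% fell, against 17.9% and 22.5% of all genes. Hist2h2aa1, a histone H2A gene, was at 54.5, 69.0, 159 and 289.6 in the KO PN3 libraries, against 7.32 and 2.66 in the KO MII libraries (4.39 ± 0.69, limma adjusted p = 0.00061). Its zygote levels spread widely, and the lowest was still above both oocyte libraries. The list's median against KO MII was 0.33, 0.19, 0.57 and 0.80 in KO PN3 replicates 1 to 4, higher in replicates 3 and 4. With those 2 replicates alone, a comparison chosen after the data were seen, 42 of the list were called higher. The count called higher was smaller than 17 without KO MII replicate 1 or 2, where fewer genes rose over all genes as well. Hist2h2aa2 (1.78 ± 0.64, limma adjusted p = 0.0434) and Hist1h4d (1.09 ± 0.40, limma adjusted p = 0.0431) lost their calls in 7 and 9 of the 13 fits that left out 1 library, among them those without KO MII replicate 1 (1.22 and 0.79). Histone genes are near-identical copies, and Hist2h2aa1 and Hist2h2aa2 are such a pair, so reads can be split between them. In wild type the list had 33 higher and 2 lower in WT PN3 (median 0.63).

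The embryo's first transcribed genes were present at low levels. Dux, a homeobox factor of minor genome activation, was at 3.14, 3.39, 1.66 and 1.5 in the KO PN3 libraries, against 0.00726 and 0.0103 in the KO MII libraries. It was near 0 in both oocyte libraries and present in every zygote library (1.72 ± 0.24, limma adjusted p = 0.0001). Zscan4d, an early 2-cell gene, was at 1.65, 1.18, 1.66 and 1.29 in the KO PN3 libraries, against 0.764 and 0.462 in the KO MII libraries (0.60 ± 0.12, limma adjusted p = 0.00133), and Usp17lc, a deubiquitinase gene of the same programme, at 1.44, 1.77, 0.545 and 1.21 in the KO PN3 libraries, against 0.0516 and 0.0968 in the KO MII libraries (1.03 ± 0.22, limma adjusted p = 0.00215). Sp110, a nuclear body protein, was abundant already in oocytes, with 244, 249.8, 219.8 and 239.7 in the KO PN3 libraries, against 145 and 142 in the KO MII libraries (0.73 ± 0.06, limma adjusted p = 7e-07). Only 11 of 49 listed genes of the 2-cell programme passed the level filter, 4 of which rose and 1 fell. Dux, Zscan4d and Usp17lc passed it through the zygote libraries alone, so the count over those that passed supports nothing, and all 3 have close copies that share reads. Zfp352 was at 0.161, 0.216, 0.0673 and 0.0294 in the KO PN3 libraries, against 0 and 0 in the KO MII libraries, under the filter. Obox3, also under it, was at 0.849, 0.652, 0.684 and 0.576 in the KO PN3 libraries, against 0.218 and 0.151 in the KO MII libraries. Among maternal homeobox genes Obox7 rose (0.58 ± 0.08, limma adjusted p = 0.00011), and Obox1 was at 327, 301, 324 and 279 in the KO PN3 libraries, against 267 and 308 in the KO MII libraries with no call. Klf17 and Pou5f1, transcription factors carried over from the oocyte, rose 1.53-fold and 1.52-fold (limma adjusted p = 4.6e-06 and 6.1e-06).

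For mRNA decay and deadenylation, of 76 members tested, 12 rose, 22 fell and 42 did not pass the test, with a median of -0.06, and 7 rose without KO MII replicate 1. With all libraries 15.8% of this list rose and 28.9% fell, against 17.9% and 22.5% of all genes. Lsm4 and Lsm5, of the ring that marks messages for decapping, fell 4.40-fold and 2.75-fold (limma adjusted p = 2.5e-05 and 1.8e-06), as did Cnot10, of the CCR4-NOT deadenylase (-1.04 ± 0.09, limma adjusted p = 1.4e-06). Btg4, the adaptor that brings this deadenylase to maternal messages, was at 1183, 1164, 1049 and 1004 in the KO PN3 libraries, against 859 and 943 in the KO MII libraries, a small rise (0.29 ± 0.09, limma adjusted p = 0.0195) that lost its call without KO MII replicate 1 (0.22). The catalytic subunit Cnot6l was at 71.5, 70.2, 56.2 and 51.7 in the KO PN3 libraries, against 56.3 and 58.0 in the KO MII libraries with no call, though it was called with PN3 replicates 1 and 2 alone (0.31). For mRNA storage and translation control, of 64 members tested, 19 rose, 14 fell and 31 did not pass the test, and 11 rose without KO MII replicate 1. The shares of the storage list with all libraries were 29.7% higher and 21.9% lower. Ybx1, a packaging protein of stored messages, was at 265, 277, 251 and 245 in the KO PN3 libraries, against 152 and 155 in the KO MII libraries (0.75 ± 0.07, limma adjusted p = 1.8e-06). Cpeb1, which binds the cytoplasmic polyadenylation element, was at 44.2, 42.5, 51.2 and 47.9 in the KO PN3 libraries, against 76.0 and 87.3 in the KO MII libraries (-0.80 ± 0.08, limma adjusted p = 5.6e-06), and Papola, a poly(A) polymerase, fell 1.89-fold (limma adjusted p = 9.3e-06).

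**Figure D3:**
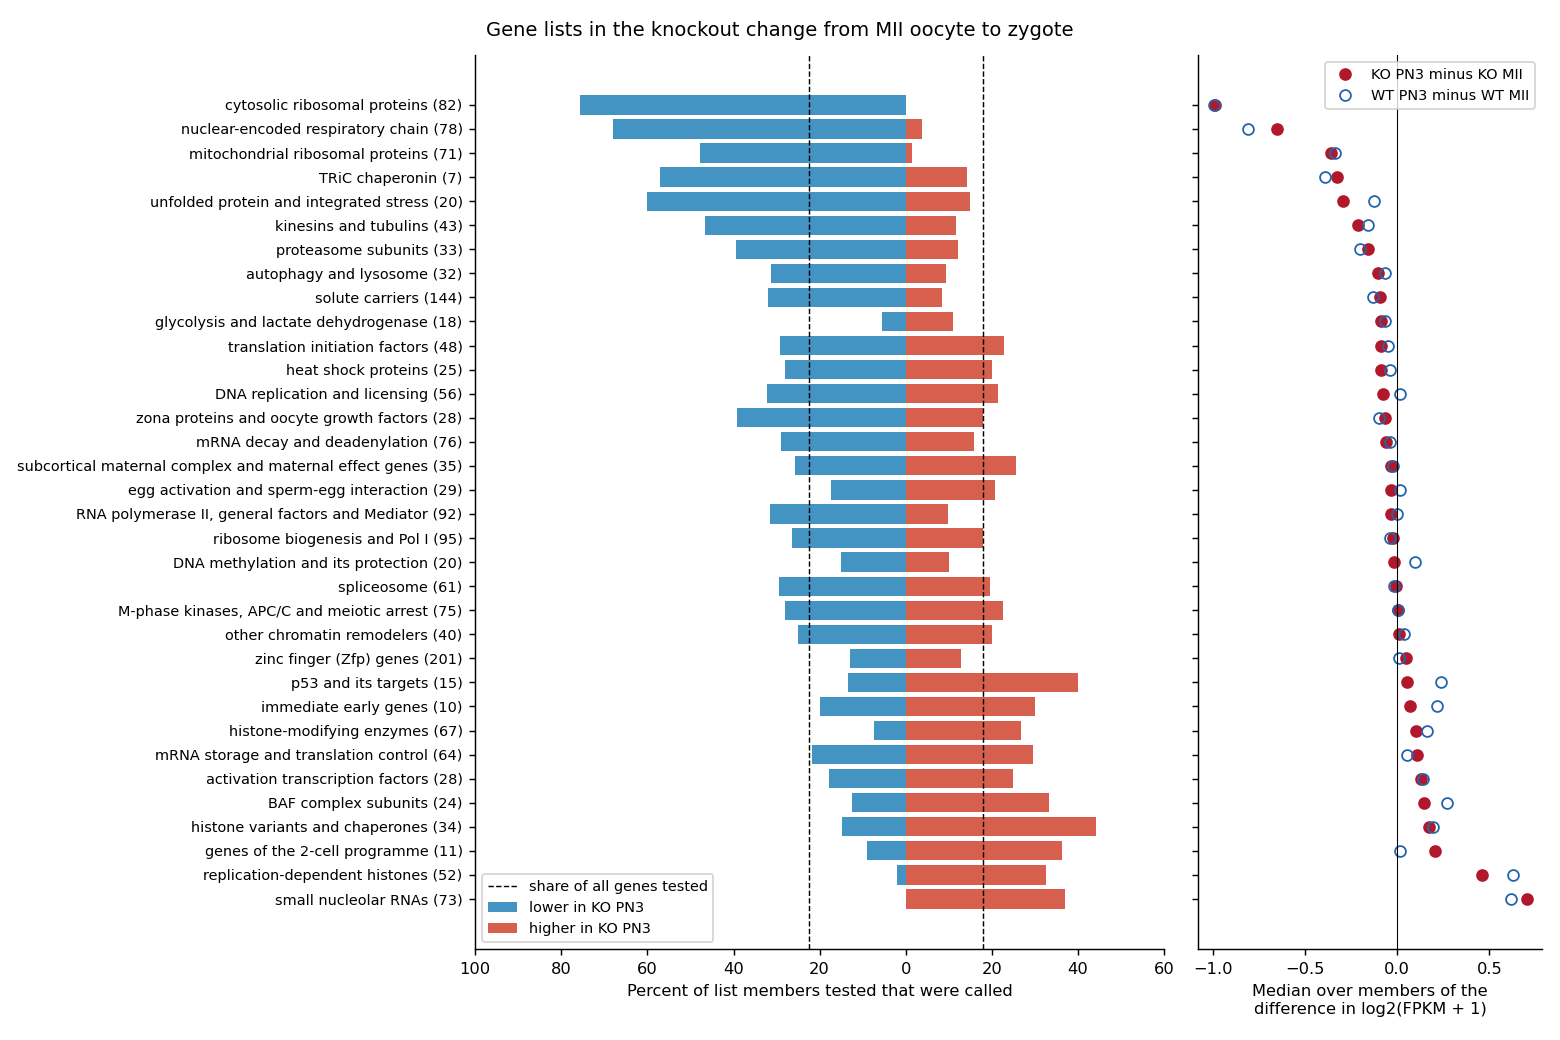
Left, percent of the tested members of each gene list (number in brackets) called lower (blue, to the left) or higher (red, to the right) in KO PN3 than in KO MII, with dashed lines at the shares over all genes tested, 22.5% lower and 17.9% higher. Right, the median change of each list in the knockout (filled) and in wild type (open), which lie on the same side of 0 in most lists. Ribosomal proteins (-0.99) and the respiratory chain (-0.65) had the lowest medians among the lists plotted, small nucleolar RNAs (0.70) the highest.

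Other lists are given against the background of 22.5% lower and 17.9% higher. For RNA polymerase II, general factors and Mediator, of 92 members tested, 9 rose, 29 fell and 54 did not pass the test, with Polr2i, a small subunit of the polymerase, 4.51-fold lower (limma adjusted p = 9.2e-08). In the spliceosome list, of 61 members tested, 12 rose, 18 fell and 31 did not pass the test, and Prpf8, at its catalytic core, fell 3.19-fold (limma adjusted p = 1.1e-05). For DNA replication and licensing, of 56 members tested, 12 rose, 18 fell and 26 did not pass the test, and Tyms, which makes thymidylate, fell 4.01-fold (limma adjusted p = 2.2e-06). For kinesins and tubulins, of 43 members tested, 5 rose, 20 fell and 18 did not pass the test, and Tuba3a fell 3.50-fold (limma adjusted p = 0.00031). For translation initiation factors, of 48 members tested, 11 rose, 14 fell and 23 did not pass the test, and of those Eif3l, of the eIF3 complex, fell 3.93-fold (limma adjusted p = 3.3e-08). For glycolysis genes, of 18 members tested, 2 rose, 1 fell and 15 did not pass the test. For p53 and its targets, of 15 members tested, 6 rose, 2 fell and 7 did not pass the test, led by Gadd45g, a growth arrest gene (0.98 ± 0.10, limma adjusted p = 9.3e-06). Gadd45g passed the level filter through the zygote libraries alone, and 3 of the p53 list rose among genes at an FPKM of 1 in all 6 libraries. The numbers that rose were smaller without KO MII replicate 1, with 2 for p53, 4 for the polymerase list, 5 for the spliceosome and 4 for initiation factors. Without KO MII replicate 2 they were 3 for the polymerase list, 6 for the spliceosome, 4 for initiation factors, 3 for kinesins and tubulins, 0 for glycolysis and 4 for p53. Without KO PN3 replicate 2, 6 initiation factors rose.

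The later knockout stages were read for the same genes, with all 25 libraries rescaled together and the median log2(FPKM + 1) taken per library. Genes that had fallen at least 2-fold had a middle library median of 4.23 at MII, 2.60 at PN3, 1.91 in early 2-cell embryos and 2.91 in late 2-cell embryos (2, 4, 3 and 3 libraries). They were lowest in the early 2-cell embryo and higher again in the late one. Genes that had risen had 3.92, 4.29, 4.35 and 4.30 at the same 4 stages, and all genes tested had 3.26, 3.11, 2.93 and 3.16. These are descriptions without a test.

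The question of which fertilisation changes need Smarca4 was read from the WT change over the same genes. These genes were chosen by their level in the knockout libraries alone. A gene below that level filter in the knockout was not tested, whatever its level in wild type. Shared and differing changes are therefore counted only among genes that passed in the knockout. A change of a gene expressed in wild type alone would be missed. The KO change and the WT change share no library, but both come from 1 fit of all 13. Scaling and the spread of each gene were shared, so the calls in the 2 genotypes are not independent. In wild type 2586 genes were called lower in WT PN3 (26.3%) and 2167 higher (22%). Of the 424 genes that fell at least 2-fold in the knockout, 419 were also called lower in wild type, with a median change of -1.34 in KO and -1.41 in WT. Of the 29 that rose at least 2-fold, 20 were also called higher in wild type. Over all calls, 1869 genes were lower in both genotypes, 1256 were higher in both, and 17 were higher in KO and lower in WT, with 9 the other way round. Pearson's r between the 2 changes was 0.88 across the 9838 genes, which are not independent replicates. Mos fell by 3.71 on the log2 scale in KO and by 3.90 in WT, Khdc3 fell by 2.68 in KO and by 2.66 in WT, and Zp3 fell by 2.35 in KO and by 2.31 in WT. Of the genes called in opposite directions, 9 also passed the test of the difference itself.

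**Figure D4:**
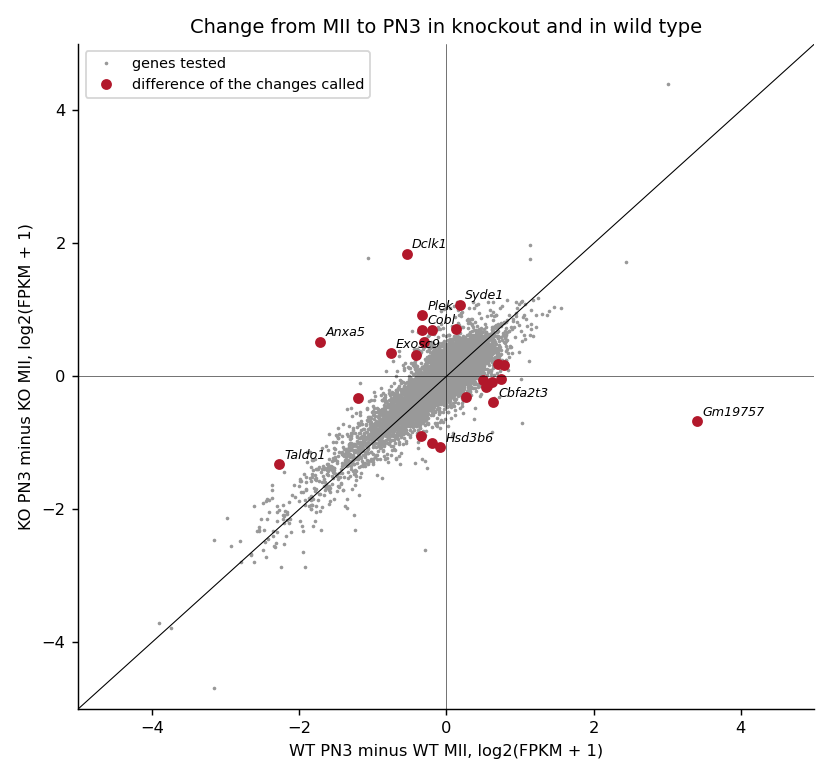
Change from MII to PN3 in the knockout (y axis) and in wild type (x axis), in log2(FPKM + 1), for the 9838 genes tested, with the line of equal change. Red points are the 25 genes whose changes differed at an adjusted p under 0.05, the 10 with the largest difference named, and most other genes lie along the line (r = 0.88).

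A gene called in one genotype alone is not shown to differ, so the difference between the changes was tested itself. It was called for 25 genes (0.254% of those tested), 12 with the higher change in KO and 13 with the lower, while 1166 had an unadjusted p under 0.05. The count was not steady. It was 0 by limma with all 25 libraries in 1 fit (106 at an unadjusted p under 0.05), 3 without KO MII replicate 1, 5 without WT MII replicate 2, 38 without KO MII replicate 2, 15 without WT PN3 replicate 1, 16 without WT PN3 replicate 4, and 11 without WT MII replicate 3, WT PN3 replicate 3 or KO PN3 replicate 3. It was 106 with PN3 replicates 1 and 2 only and 347 with replicates 3 and 4 only, and 52 genes were called in both with the same sign. Of the 25 genes, 22 were among those called in both. Both fits used the same MII libraries, and the 25 came from the fit that holds both pairs. The overlap is therefore not separate support for these genes. Each of Anxa5, Dclk1 and Gm19757 was called without any 1 of the 13 libraries. For 11 of the 25, the MII libraries of the genotypes did not overlap while the PN3 libraries did, and for 12 neither overlapped. Over all genes tested the genotypes did not overlap at MII in 43.8% and at PN3 in 11.3%. These shares cannot be set against each other. MII has 2 KO and 3 WT libraries and PN3 has 4 of each, and smaller groups separate more often by chance.

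In 6 of the 10 genes with the largest difference, 1 oocyte group stood apart from the other 3 groups. Dclk1 was at 3.80, 3.11, 2.10 and 1.83 in KO PN3 and 0.0185 and 0 in KO MII, against 1.82, 1.89, 2.08 and 2.21 in WT PN3 and 2.63, 4.66 and 3.03 in WT MII. The KO oocyte stood apart, and the difference between the changes was 2.39 ± 0.27 SE (limma adjusted p = 0.00145). Anxa5, a calcium-dependent membrane binding protein, was at 4.40, 5.16, 4.07 and 3.29 in KO PN3 and 2.20 and 3.06 in KO MII, against 2.83, 3.25, 2.45 and 2.34 in WT PN3 and 11.3, 10.7 and 11.5 in WT MII. Here the WT oocyte was high and fell, and the KO oocyte was low already, with the KO zygotes all just above the WT zygotes (2.24 ± 0.19, limma adjusted p = 0.00014). Exosc9, a subunit of the RNA exosome, was at 17, 17.1, 12.7 and 15.9 in KO PN3 and 11 and 13.2 in KO MII, against 14.7, 12.6, 11.1 and 11.3 in WT PN3 and 21.3, 22.4 and 21.1 in WT MII, also high in the WT oocyte (1.1 ± 0.17, limma adjusted p = 0.0145). Syde1, a GTPase-activating protein, was at 2.62, 2.89, 3.02 and 3.54 in KO PN3 and 1.01 and 0.788 in KO MII, against 3.89, 3.27, 3.59 and 4.34 in WT PN3 and 3.18, 3.10 and 3.30 in WT MII, low in the KO oocyte (0.90 ± 0.15, limma adjusted p = 0.0228), and in the knockout it passed the level filter through the zygotes alone. Hsd3b6, a steroid dehydrogenase, was at 0.585, 0.825, 0.686 and 0.634 in KO PN3 and 2.52 and 2.50 in KO MII, against 0.571, 0.288, 0.671 and 0.522 in WT PN3 and 0.506, 0.707 and 0.602 in WT MII, high in the KO oocyte alone (-0.97 ± 0.15, limma adjusted p = 0.0151), the group through which it had passed the level filter. Gm19757, an unnamed locus, was at 14.2, 13.8, 5.51 and 6.12 in KO PN3 and 13.9 and 16.4 in KO MII, against 10.7, 10.0, 10.0 and 8.22 in WT PN3 and 0.0117, 0.0166 and 0.0161 in WT MII, near 0 in the WT oocyte alone (-4.07 ± 0.38, limma adjusted p = 0.00027).

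In the other 4 the zygotes of the genotypes did not overlap. Plek, pleckstrin, a substrate of protein kinase C, was at 9.88, 9.48, 11.4 and 9.86 in KO PN3 and 4.66 and 5.15 in KO MII, against 3.96, 4.93, 3.42 and 3.42 in WT PN3 and 4.68, 5.96 and 4.86 in WT MII. It was highest in the KO zygote, where every library was above all 9 others (1.24 ± 0.17, limma adjusted p = 0.00744). Cobl, an actin nucleator, was at 3.73, 3.57, 2.52 and 3.42 in KO PN3 and 2.05 and 1.27 in KO MII, against 4.89, 5.18, 4.42 and 5.17 in WT PN3 and 5.61, 6.82 and 6.92 in WT MII, lower in KO at both stages (1.03 ± 0.19, limma adjusted p = 0.0402). Taldo1, transaldolase of the pentose phosphate pathway, fell in both genotypes, with 5.21, 5.21, 6.84 and 7.64 in KO PN3 and 17.6 and 16.2 in KO MII, against 3.61, 3.30, 4.40 and 4.24 in WT PN3 and 22.9, 21.8 and 23.2 in WT MII, and fell less in KO (0.96 ± 0.18, limma adjusted p = 0.0451). Cbfa2t3, a transcriptional corepressor, was at 4.50, 4.30, 3.46 and 3.77 in KO PN3 and 6.59 and 4.62 in KO MII, against 5.32, 6.05, 6.30 and 6.64 in WT PN3 and 3.42, 3.08 and 4.16 in WT MII, lower in KO zygotes than in KO oocytes and higher in WT zygotes than in WT oocytes (-1.03 ± 0.18, limma adjusted p = 0.0371). Of these 10 differences, all except those of Anxa5, Dclk1 and Gm19757 lost their call without at least 1 library (1 library for Plek, 2 for Exosc9, 3 for Hsd3b6, 6 for Cbfa2t3, 7 for Syde1 and 10 for Cobl and for Taldo1). KO MII replicate 1 was among them in each case, with values there of 0.98 for Exosc9, 0.98 for Syde1, -0.97 for Hsd3b6, 1.19 for Plek, 1.25 for Cobl, 1.02 for Taldo1 and -0.81 for Cbfa2t3. Cbfa2t3's own KO change lost its call there too (-0.17), as did those of Anxa5 (0.35) and Exosc9 (0.22), and that of Exosc9 was lost in 7 of the 13 fits that left out 1 library. Female strain may differ between the genotypes and cannot be told apart from the loss of Smarca4 in any of them. Dux, by comparison, was at 3.14, 3.39, 1.66 and 1.5 in KO PN3 and 0.00726 and 0.0103 in KO MII, against 6.32, 5.55, 3.29 and 3.53 in WT PN3 and 0, 0.0337 and 0.0260 in WT MII, and its difference between the changes was -0.72 ± 0.33 with no call (limma adjusted p = 0.402).

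**Figure D5:**
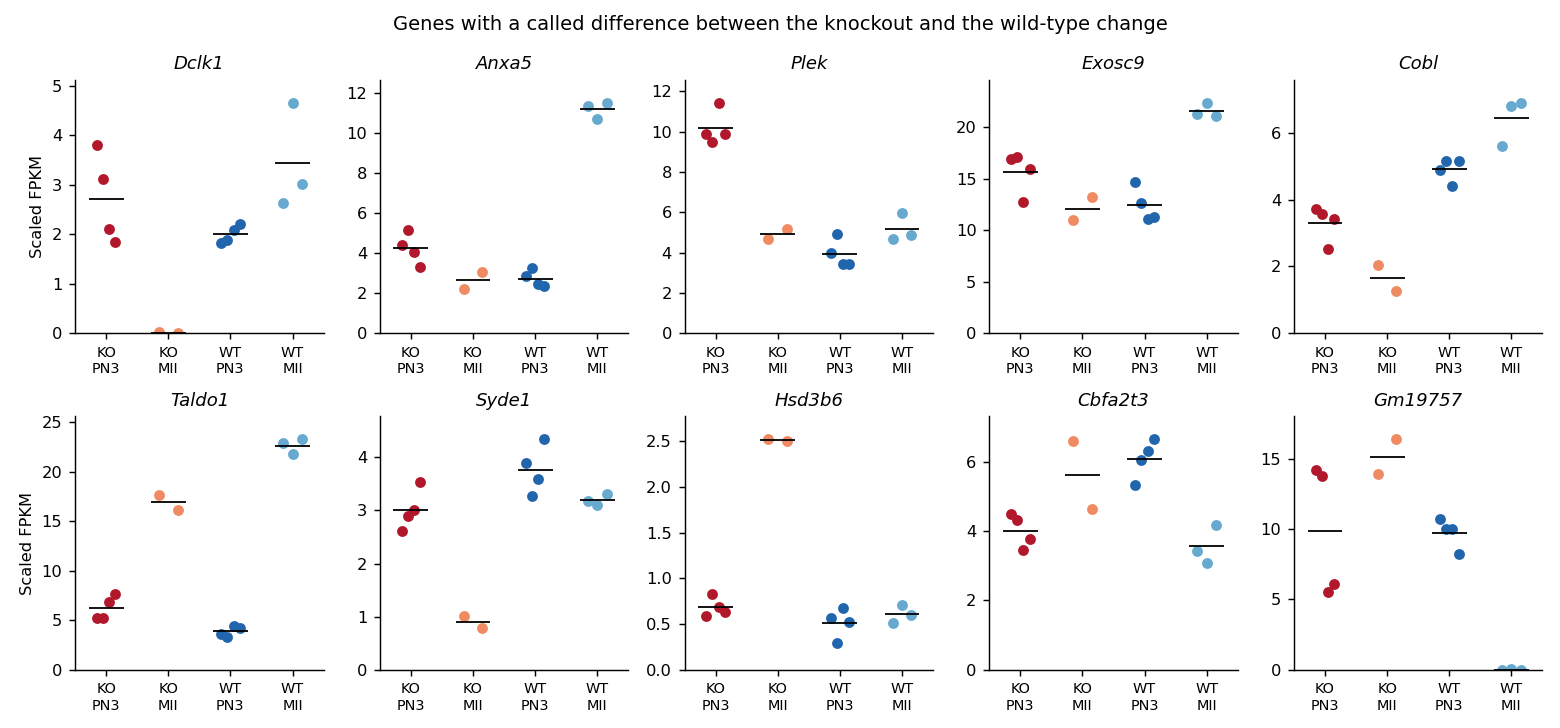
Level in each library, in rescaled FPKM on linear axes from 0, of the 10 genes with the largest called difference between the knockout and the wild-type change, with KO PN3, KO MII, WT PN3 and WT MII from left to right and a line at each mean. In Dclk1, Anxa5, Exosc9, Syde1, Hsd3b6 and Gm19757 it is an oocyte group that stands apart from the other 3, and in Plek it is the KO zygotes.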

How the data were processed

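RNA-seq libraries of mouse oocytes and embryos were grouped from their titles. The deposited values are FPKM per gene symbol, made by the authors from total RNA depleted of ribosomal RNA in stranded paired-end libraries, per the labels' protocols. Trim Galore 0.4.5, HISAT2, StringTie, HTSeq and the builds mm10 and GRCm38 are named without a role or order, per the submitters' processing notes, and the sources used here do not say whether counting used strand. FPKM carry no read counts, so depth and counting precision are unknown.

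FPKM were rescaled by median ratios over 8590 genes at or above 1 in all 13 MII and PN3 libraries, and log2(FPKM + 1) went into a linear model (limma 3.58.1, R 4.3.3) with 4 group means, 9 residual degrees of freedom, a trended robust prior and Benjamini-Hochberg adjustment over 9838 genes at 0.05. A log2 difference on this scale understates the change of low genes. Transcript features came from GENCODE vM21 and promoters from RefSeq, used for the 5941 tested genes with a single start.

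Genes were named by rule: Smarca4 and Smarca2, the 15 largest called rises and falls with groups that did not overlap, up to 4 called members of each list, the 10 largest called differences between genotypes, genes called in both genotypes with the largest changes, and a watch list of oocyte genes. Symbols of unnamed loci were counted but not named, except Gm19757. A few genes that the rule picks are not reported here. The members and lists were chosen with earlier results of these data known. Alternatives were other sets of libraries, scalings, pseudocounts, filters and priors, a replicate block and leaving out each library. Fits with PN3 replicates 1 and 2 or 3 and 4 only were added after seeing the data.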

Additional observations from a re-analysis of the deposited data

Results flagged for a closer look

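Among groups of 4 libraries, 1 library lay far from the rest in 3 cases. Chance alone picks about 1 in 20 groups. The number of groups screened is not given, so the 3 cases cannot be set against that share. Prm2 was 6.02 FPKM in 1 KO PN3 library, below the other 3. Rpl26 was 14.7 FPKM in 1 WT PN3 library. Rps27rt was 0.172 FPKM in 1 KO PN3 library and listed at 0 in the other 3, and with 3 values tied at 0 any other value would be flagged.

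The KO change minus the WT change passed the limma test of the difference itself for 10 named genes. The difference was positive, a higher change in KO, for Dclk1 (2.39), Anxa5 (2.24), Plek (1.24), Exosc9 (1.1), Cobl (1.03), Taldo1 (0.96) and Syde1 (0.90), in log2 units. It was negative for Gm19757 (-4.07), Cbfa2t3 (-1.03) and Hsd3b6 (-0.97).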

How the results depend on the processing

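The KO change was called for 3973 genes. One fit of all 25 libraries called 787, of which 786 were shared with the same direction, and the range was 2624 to 4112 when 1 library was left out. The WT change was called for 4753 genes, and for 1416 in the fit of all 25 libraries. The difference between the changes, called for 25 genes, was called for 0 with all 25 libraries, 39 with FPKM as deposited, 11 with no filter, 106 with PN3 replicates 1 and 2 only, 347 with PN3 replicates 3 and 4 only, and 3 to 38 when 1 library was left out. None of the 168 named genes called in KO changed sign under the alternatives run. Of the named genes not called, Izumo1r, Cnot6l, Dppa3, Obox1, Tet3 and Prm2 changed sign under at least 1 alternative. With PN3 replicates 1 and 2 only, the members that rose were 11 in the zona list, 20 in mRNA decay and 16 in the polymerase list, and those that fell were 8 in egg activation, 10 in histone-modifying enzymes and 6 in DNA methylation. With PN3 replicates 3 and 4 only, 10 of the egg activation list rose. With no filter, 16 small nucleolar RNAs, 5 of the polymerase list and 7 initiation factors rose. Among genes at an FPKM of 1 in all 6 KO libraries, 1 gene of the 2-cell programme rose. Of these 168 genes, 61 lost the call with all 25 libraries, 21 without KO MII replicate 1 and 14 without KO MII replicate 2. The causes were not tested.

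With a replicate block the difference was called for 179 genes and the KO change for 4655, and 17 small nucleolar RNAs rose. The labels do not say that a number marks a shared female or day, and the deviations of same-numbered libraries correlated at -0.03 and 0.18 between KO PN3 and KO MII and at 0.02, 0.41, 0.14 and 0.46 between KO PN3 and WT PN3. Not every pair was over 0.1, so the numbers were not taken as pairs.

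Only 2 KO MII libraries were available, depth is unknown, and low FPKM values near the filter limit what can be read for rare transcripts.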
